A study of Rattus norvegicus with 244 samples.

Results

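Cytosolic ribosomal protein genes were followed in the raphe and the somatomotor cortex of the rat after a spinal cord injury or after laminectomy alone. Members were the genes with a single annotated symbol of the ribosomal protein kind: Rpl or Rps with a number and an optional short ending, Rplp0 to Rplp2, and Rpsa, leaving out the Rps6k kinases. Of 10969 genes with a single symbol, 58 were members, 38 of the large and 20 of the small ribosomal subunit, and they were covered by 99 of 26202 probe sets. A gene with several probe sets was represented by the one with the highest mean signal. A further 52 probe sets that carry several symbols, a ribosomal protein among them, were not used. By this choice 37 members were read on array type A, 9 on type B and 12 on type C, the 3 array types on which each sample was measured.

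In both regions there were 4 naive samples, from rats without an operation, 12 sham samples with laminectomy only and 24 samples with a moderate spinal cord injury. The operated animals were sampled 4 h, 24 h and 7 d after surgery and again at 14 d, 28 d and 3 months, with 2 sham and 4 injured samples per time. On type A the raphe had 1 sham sample at 3 months and so 11 in all, and on type C it had 3 naive samples. A sham sample of raphe and 2 of cortex at 30 min, on type A alone, and 1 of cortex at 72 h had no injured counterpart. "Operated" stands below for sham and injured samples of the 6 shared times, with each of the 12 groups weighted equally. Strain, sex and age are not given in the sources used here, nor is it stated that each sample came from its own animal, so the p-values measure the spread between samples. The labels name the tissue of the naive and sham raphe samples as raphe magno and that of the injured ones as raphe, so that dissection and injury cannot be told apart in the raphe.

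The cytosolic ribosome is built from ribosomal RNA and a fixed set of ribosomal proteins, which enter it in near-equal amounts. In vertebrates their mRNAs begin with a cytosine followed by a run of pyrimidines, the terminal oligopyrimidine tract, through which growth signalling by mTOR sets their translation together. In neurons ribosomes fill the cell body and reach into dendrites and axons, and the expression of these genes is high in nearly every cell type, so an array signal from tissue sums over all of them.

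The annotated start of the mRNA is shown for some of the members named in the results, because the start holds the sequence feature that these genes share. RefSeq promoters of the rat (GRCr8) were matched for 50 of the 58 members. In 18 of them (36.0%) the annotated start is a C followed by at least 4 bases that are each C or T, read on the strand of the gene at that position alone, against 722 of 27457 genes in all (2.63%). Below, 15 bases before and 15 from the annotated start are given 5′ to 3′, with the pyrimidine run at the start in capitals where it is of this kind. Rpl28 and Rplp0 were lower in operated cortex. Rpl39 was higher in injured than in sham raphe, at an adjusted p near the threshold that did not hold in most fits with 1 sample left out. Rpl36, Rps3, Rpl11 and Rpl36a were lower in operated cortex too, and their annotated starts are without the run. Rps29, also lower there, is not among the 50 members with a matched promoter.
Rpl28 (chr1:78083518-78083547, minus strand): ccccgcccctagtgtCTTTCTTTCCgtctc
Rplp0 (chr12:46718376-46718405, minus strand): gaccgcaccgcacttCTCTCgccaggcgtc
Rpl39 (chrX:121195882-121195911, minus strand): tcttctaatcgcgttCTTCCggcctgtcct
Rpl36 (chr9:1533765-1533794, plus strand): ctgtccggccgccatcggaaagctgcaggt
Rps3 (chr1:163195762-163195791, minus strand): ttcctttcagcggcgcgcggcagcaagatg
Rpl11 (chr5:153560788-153560817, minus strand): ggggacttgaagcttgtttggtgctgggga
Rpl36a (chrX:102059434-102059463, plus strand): ccgcctataaacttccgttgctgctctagc

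All values below are log2 of the deposited signal plus 32, and differences are differences of these values with their standard error. The added 32 understates the changes of weak genes. Signal was high for most members: 44 of the 58 lay at or above the 90th percentile of mean signal on their array type, and Rpl5, Rps15a, Rpl30 and Rps4y2 lay below the 50th. All 58 passed the filter on low values in both regions.

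Of 84 samples, 5 stood apart in ways that do not depend on the members, and results are given with and without them. Cortex injured at 7 d replicate 2 and cortex sham at 14 d replicate 2 had a raised low end of the signal, with a 5th percentile of 31.3 and 57.0 against 9.56 to 20.2 in the other cortex samples. In replicate 1 of the injured raphe at 4 h the 3′ probe set of actin read 46.2 times its 5′ probe set, where the remaining raphe samples gave 1.25 to 2.65. Cortex sham at 3 months replicate 1 and raphe sham at 3 months replicate 1 lay nearer to the other region by the genes that separate the naive regions. They are called the doubted samples. Without them, the serotonin and dopamine enzyme gene Ddc ran from 9.42 to 10.62 in the raphe and from 7.41 to 8.57 in the cortex, and the serotonin transporter Slc6a4 from 9.41 to 10.75 and from 7.10 to 9.72. The cortical transcription factor Tbr1 had a median of 9.55 in the cortex and 8.67 in the raphe. The serotonin synthesis gene Tph1 and the glutamate transporter gene Slc17a7 did not separate the regions: their medians in either region lay between 5.29 and 5.61, near the lowest value that the added 32 allows.

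In the cortex, most ribosomal protein genes had lower values in operated than in naive samples. Of the 58, 51 had a lower mean after an operation and 7 passed the threshold of an adjusted p of 0.05, all 7 lower. Of all 18733 probe sets tested in this comparison 1.28% passed, 0.614% as lower. Of the 2557 other probe sets in the 10% with the highest signal 2.11% passed, 1.33% as lower. In tissue samples fewer cells of a type and less RNA per cell cannot be told apart. The median difference of the members was -0.24, beside 0.01 for all probe sets tested and -0.05 for the 2557 other probe sets in the 10% with the highest signal. The same 7 genes passed without the doubted samples, and the median was again -0.24, while 2.54% of all probe sets passed. The calls rest on 4 naive samples: 1, 2, 4 and 4 members passed when naive replicate 2, 4, 1 or 3 was left out, and 4 passed when each array was centred on its median. Without naive replicate 4 the adjusted p of Rpl28 was 0.0678 and that of Rplp0 0.149, and without naive replicate 2 that of Rpl36 was 0.0706, of Rpl36a 0.0596 and of Rps3 0.147.

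**Figure D1:**
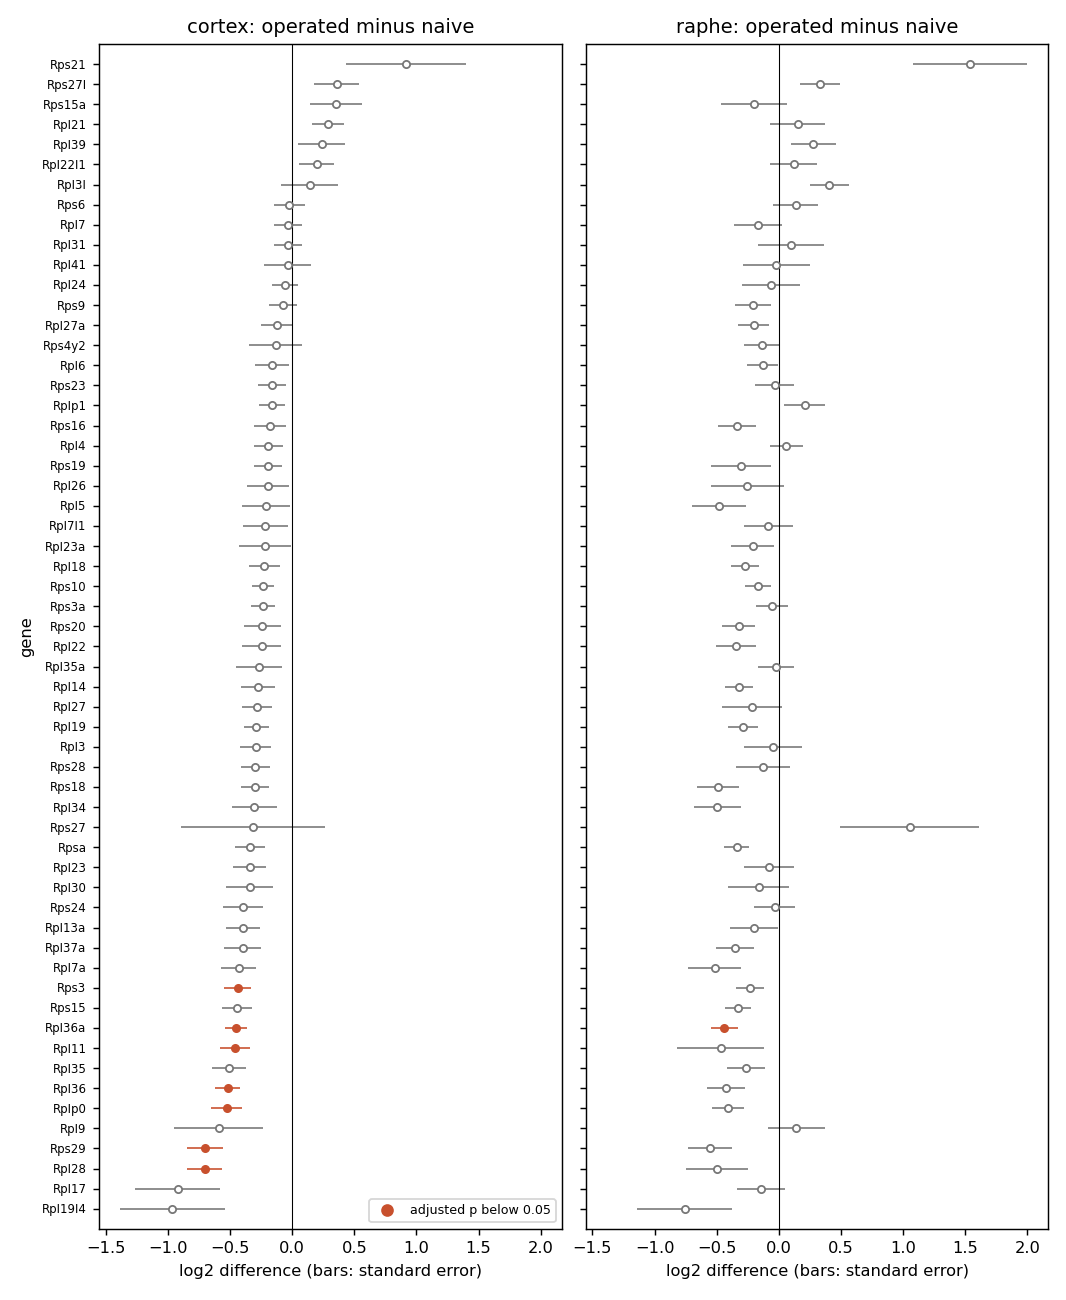
Log2 difference of operated minus naive samples (x axis, bars are standard errors) for each of the 58 genes (y axis, in the order of the cortex), in cortex and raphe; filled points have an adjusted p below 0.05. In the cortex 51 points lie below 0 and 7 of them are filled; in the raphe 46 lie below 0 and 1 is filled.

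Large subunit genes made up 5 of the 7. Rpl28, a protein of the large subunit, had naive cortex values of 14.91, 15.07, 15.09 and 15.32, sham values from 13.86 to 15.09 with a median of 14.53, and injured values from 13.88 to 14.91 with a median of 14.32. Of the 36 operated samples 33 were below every naive sample and all 36 below the naive mean. The difference was -0.71 ± 0.14 (SE, n = 36 and 4, adjusted p = 0.0117).

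Rplp0, the stem of the stalk to which elongation factors bind, had naive values of 14.10, 14.09, 14.06 and 14.37. Its sham values ran from 13.36 to 13.92 (median 13.63) and its injured values from 13.28 to 14.13 (median 13.53). All 12 sham samples and 23 of 24 injured samples were below every naive sample, and the difference was -0.53 ± 0.12 (adjusted p = 0.0265). With median centring it was -0.58, with an adjusted p of 0.0529.

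Rpl36, of the large subunit, had naive values of 12.88, 13.10, 13.03 and 12.73, against sham values from 11.89 to 13.14 (median 12.55) and injured values from 11.97 to 12.81 (median 12.34). One sham sample, at 7 d, was above every naive sample, while 32 of 36 operated samples were below all of them. The difference was -0.52 ± 0.10 (adjusted p = 0.0095).

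Rpl11, known also for binding the p53 regulator Mdm2 when ribosome assembly is disturbed, had naive values of 13.84, 13.58, 13.60 and 13.80. Sham values ran from 12.68 to 13.52 (median 13.22) and injured values from 12.93 to 13.77 (median 13.24). All 12 sham and 22 of 24 injured samples were below the naive ones. The difference was -0.46 ± 0.12, and its adjusted p of 0.0455 was near the threshold. It was above 0.05 without a filter, with median centring or quantile normalization, without the arrays of conflicting labels and for 21 of 40 samples left out, with the highest value, 0.162, without naive replicate 4.

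Rpl36a, whose protein lies at the exit site for transfer RNA, had naive values of 13.98, 14.04, 14.08 and 13.81, against 13.32 to 13.88 in sham (median 13.50) and 13.14 to 13.83 in injured samples (median 13.48). Of the 36 operated samples 33 were below every naive sample. The difference was -0.45 ± 0.09 (adjusted p = 0.0102). A second probe set of Rpl36a, with a lower signal, went the other way in the cortex, by 0.45 ± 0.29, and the mean of its probe sets differed by only -0.03 (adjusted p = 0.939).

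Of the small subunit, Rps29 and Rps3 passed. Rps29, a small zinc-binding protein of the head of the small subunit, had close naive values of 15.70, 15.75, 15.75 and 15.84. Sham values ran from 14.37 to 15.56 (median 15.20) and injured values from 14.32 to 15.67 (median 15.02), so that all 36 operated samples were below every naive one. The difference was -0.70 ± 0.15 (adjusted p = 0.0159). Its second probe set differed by -0.19 ± 0.13, and the mean of both by -0.45 (adjusted p = 0.0675). Without naive replicate 4 its adjusted p was 0.0663.

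Rps3, at the entry of the mRNA channel and also a DNA repair protein, had naive values of 14.15, 14.31, 14.19 and 14.26. Sham values ran from 13.29 to 14.22 (median 13.94) and injured values from 13.34 to 14.17 (median 13.68), with 34 of 36 below every naive sample. The difference was -0.44 ± 0.11 (adjusted p = 0.0358). Its 3 probe sets differed by -0.44, -0.47 and -0.45, and the mean of them had an adjusted p of 0.0621. The adjusted p was also above 0.05 with median centring (0.0833), quantile normalization (0.0705) and no filter (0.0542).

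**Figure D2:**
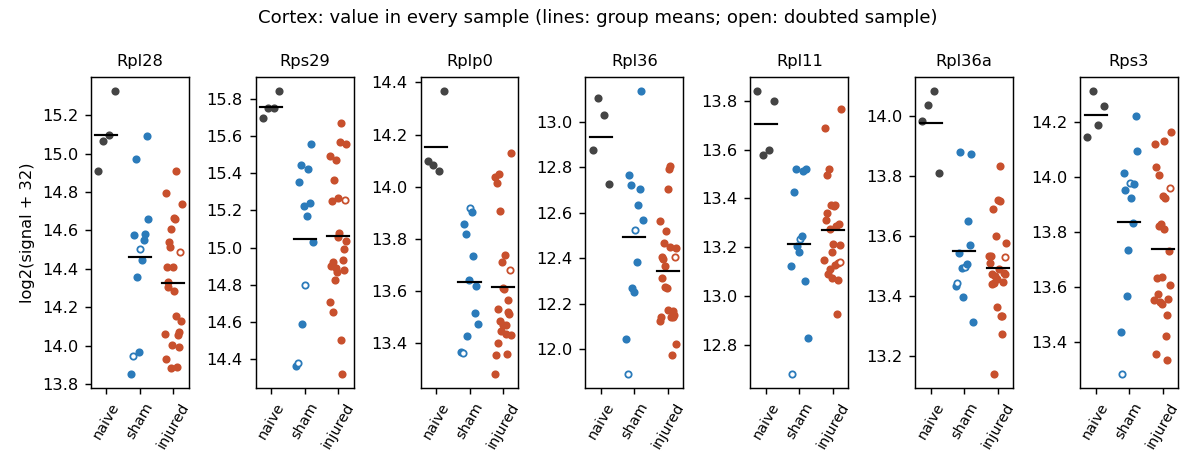
Log2 of signal plus 32 (y axis, its own range for each gene) in every cortex sample of the naive, sham and injured groups (x axis) for the 7 genes that passed the threshold; lines are group means and open points are doubted samples. For Rps29 all 36 operated samples lie below the lowest of the 4 naive samples, at 15.70, while for the other 6 genes 1 to 4 operated samples overlap with the naive ones.

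The members that did not pass ranged widely. Rpl19l4, named as a relative of the large subunit gene Rpl19, had the most negative value in the cortex, -0.96 ± 0.42, and Rpl17 followed with -0.92 ± 0.34, both with a large spread (adjusted p = 0.254 and 0.167). Rpl35 (-0.51, adjusted p = 0.0576) and Rps15 (-0.45, adjusted p = 0.0622) were just outside the threshold. In all 24 members had an unadjusted p below 0.05 and a lower value and 1 had such a p and a higher value, Rpl21, at 0.29 ± 0.13. The other 6 positive values were those of Rps21, Rps27l, Rps15a, Rpl39, Rpl22l1 and Rpl3l, from 0.14 to 0.91. Rps27l, Rpl22l1 and Rpl3l encode paralogues of the ribosomal proteins Rps27, Rpl22 and Rpl3, and Rpl3l is known from striated muscle. Rpl7l1, a further paralogue, was at -0.22 and Rps4y2 at -0.13. For 11 of the 25 members with at least 2 tested probe sets, the probe sets differed in sign in this comparison.

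By subunit, the median difference in the cortex was -0.27 over the 38 genes of the large and -0.23 over the 20 of the small subunit. By the annotated start, it was -0.30 over the 18 members with the run led by C, 17 negative and 2 past the threshold. It was -0.20 over the other 32, 26 negative and 4 past the threshold. Rps29, also past the threshold, has no matched promoter and is in neither subgroup. The split follows the annotation, and the 32 are not free of pyrimidine runs. In Rpl27a and Rps23, for example, all 15 bases from the annotated start are pyrimidines, the first a T. In Rps3 a pyrimidine run lies before the annotated start. The difference between these subgroups was not tested.

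Sham and injured cortex were each compared with naive cortex. The comparisons share the naive samples, so their values are given side by side. Against naive, 3 members were lower in sham samples (0.491% of all probe sets passed, 0.251% as lower), Rps29 (-0.71), Rpl28 (-0.64) and Rpl36a (-0.43), and none was higher. In injured samples 6 were lower (2.00% of all probe sets passed, 0.950% as lower), Rpl28 (-0.77), Rps29 (-0.70), Rpl36 (-0.59), Rplp0 (-0.54), Rps3 (-0.49) and Rpl36a (-0.48). The median over the 58 was -0.24 in sham and -0.25 in injured samples. Without the doubted samples 3 and 8 passed, the added ones being Rpl17 (-1.25) and Rpl11 (-0.42). The share of all probe sets that passed was then 0.849% for sham and 4.12% for injured samples. Without a filter, none passed in sham samples. Each of the 3 also missed the threshold in 10 or 11 of 16 fits with 1 sample left out, with an adjusted p up to 0.159 for Rpl28 without naive replicate 4.

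Sample by sample, the median of the members relative to the naive means lay between -0.10 and 0.06 in the 4 naive cortex samples. In the 36 operated samples it ran from -0.74 to 0.13, and 29 of them were below the lowest naive sample. The lowest, cortex sham at 14 d replicate 2, is a doubted sample, and the next lowest was injured at 4 h, at -0.55. The highest was a sham sample at 7 d. Sham samples at 30 min, over the 37 members of type A, were at -0.01 and -0.03, within the naive range of -0.06 to 0.08 over the same members. Over these members, sham samples were at -0.21 and -0.23 at 4 h, -0.06 and -0.13 at 24 h, -0.07 at 72 h, and 0.09 and -0.31 at 7 d, with no steady course. Over all 58 members the group medians of sham cortex were -0.17 at 4 h, -0.04 at 24 h, -0.04 at 7 d, -0.57 at 14 d, -0.29 at 28 d and -0.27 at 3 months, with 30 of 58 members negative at 7 d and 51 at 14 d.

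**Figure D3:**
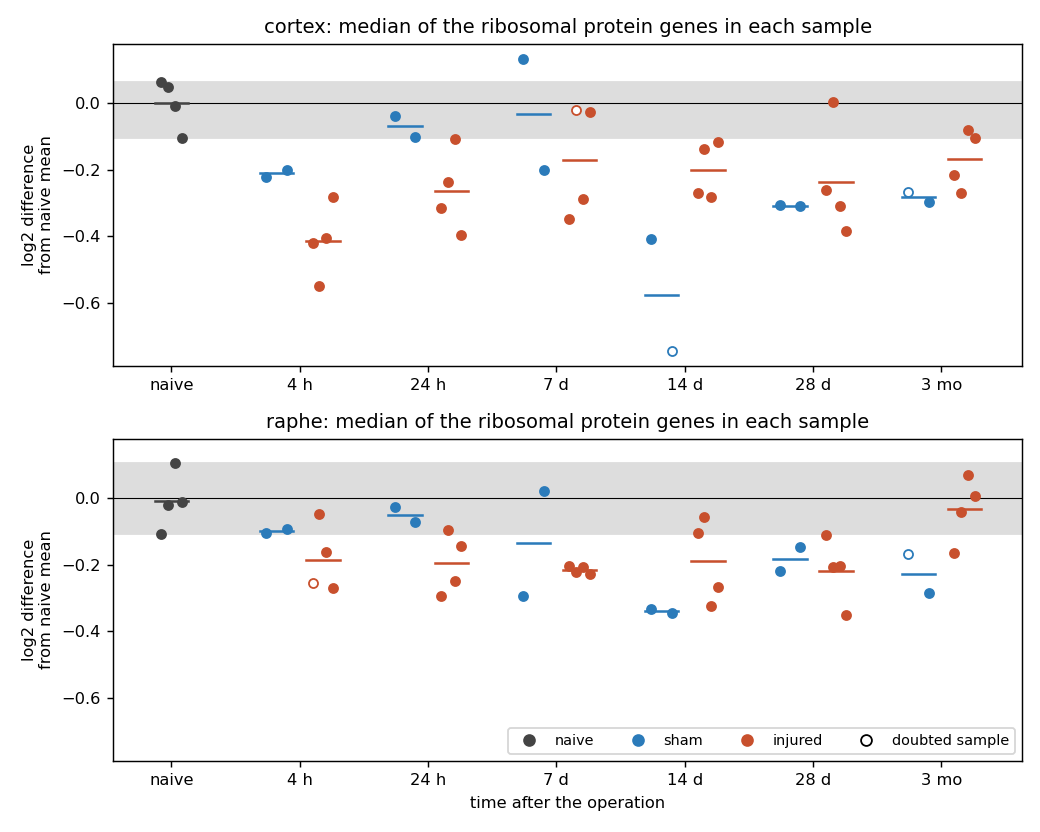
Median over the ribosomal protein genes of the log2 difference from the naive mean (y axis) in every cortex and raphe sample by group and time after the operation (x axis); lines are group means, open points are doubted samples and the grey band is the range of the 4 naive samples. Below the band lie 29 of 36 operated samples in the cortex and 24 of 36 in the raphe.

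A measure of RNA quality moved with the groups. The GAPDH 3′ over 5′ ratio was 1.17 to 1.23 in naive cortex and above this range in 30 of 36 operated samples, which reached 1.82. The actin ratio was 1.32 to 1.63 in naive cortex and above this in 15 of 36 operated samples. In the 6 operated samples not above the naive GAPDH range the median of the members ran from -0.55 to -0.26. Among markers of other cells, 1 astrocyte gene of 10 passed in the cortex, the glutamine synthetase gene Glul at -0.61, and all 13 microglia and macrophage genes tested had negative values (median -0.20) with none past the threshold. The summed signal of 5 astrocyte genes was 46894 to 60999 in naive cortex and 28492 to 59567 in operated cortex, with 26 of 36 below every naive sample. That of 7 microglia and macrophage genes was 10566 to 12858 and 8064 to 13714, with 20 of 36 below. Of 12 oligodendrocyte genes and 12 genes of meninges and fibroblasts none passed by limma, with medians of -0.17 and 0.18. The oligodendrocyte sum was below every naive sample in 15 of 36 and the meninges sum above every naive sample in 25 of 36. The sum of 9 neuron genes was 47585 to 54898 in naive cortex. It was below every naive sample in 4 of 36 operated samples and above in 7. The part of RNA quality and of these cells in the result was not tested.

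In the raphe most members had lower values after an operation too, and 1 member passed, Rpl36a. Of the 58, 46 were lower in operated samples, with a median of -0.20, beside 0.00 for all probe sets tested and -0.05 for the others in the 10% with the highest signal, and 2.22% of all 18683 probe sets passed, 0.642% as lower. Rpl36a had naive values of 13.95, 14.24 and 13.90, sham values from 12.95 to 13.95 (median 13.63) and injured values from 13.30 to 14.02 (median 13.58). Of 36 operated samples 33 were below every naive one. The difference was -0.44 ± 0.11 (n = 36 and 3, adjusted p = 0.0284). Here the second probe set was lower too, by -0.76 ± 0.19. The adjusted p was 0.0729 with quantile normalization and up to 0.211 with a naive sample left out (replicate 3).

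Without the doubted samples 15 raphe members passed, 14 lower and 1 higher, while the share of all probe sets that passed rose from 2.22% to 8.92%. Leaving out raphe injured at 4 h replicate 1 alone gave 12. The median of the members hardly moved (-0.19). The 14 were Rps29 (-0.58), Rpl28 (-0.57), Rps18 (-0.50), Rpl34 (-0.50), Rpl7a (-0.47), Rpl36 (-0.45), Rpl36a (-0.45), Rplp0 (-0.41), Rpl37a (-0.40), Rpl11 (-0.39), Rpsa (-0.35), Rps15 (-0.33), Rpl14 (-0.33) and Rps16 (-0.32). They included 6 of the 7 members that were lower in operated cortex, Rps3 being the exception.

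Rps29 in the raphe had naive values of 15.18, 15.37, 15.53 and 15.65, with sham values from 14.46 to 15.28 (median 14.80) and injured values from 14.51 to 16.22 (median 14.91). Of 35 operated samples 30 were below every naive sample and 1 was above. Over all samples the difference was -0.56 ± 0.18 (adjusted p = 0.0880). Rplp0 had naive values of 14.11, 14.06, 14.23 and 14.35 and a median of 13.85 in sham and 13.66 in injured samples, with 29 of 35 operated samples below the naive ones and a difference of -0.41 (adjusted p = 0.0920). Rpsa, a small subunit protein that is also described as a laminin receptor, had naive values of 13.13, 12.89, 13.04 and 13.25, and 31 of 35 operated samples were below them, with a difference of -0.34 (adjusted p = 0.0725).

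Rps21, a protein of the small subunit with a weak signal here, was the member with the largest positive difference in the raphe. Its naive values were 8.28, 7.63, 7.36 and 6.61, its sham values ran from 6.56 to 10.25 (median 8.67) and its injured values from 8.02 to 10.92 (median 9.77). In 21 of 24 injured samples it was above every naive sample, and the injured samples at 3 months were the lowest of the injured groups on the mean. Against naive, injured samples were higher by 2.04 ± 0.47 (adjusted p = 0.0127), one of 3 members that passed in this comparison (3.06% of all probe sets passed, 2.23% as higher and 0.824% as lower), beside Rpl36a (-0.41, adjusted p = 0.0374) and Rplp0 (-0.47, adjusted p = 0.0444). Without naive replicate 4 the adjusted p was 0.0807 for Rps21 and 0.178 for Rplp0, and without naive replicate 3 it was 0.265 for Rpl36a. In the cortex its values overlapped more, from 7.41 to 8.14 in naive and from 6.98 to 10.72 in operated samples, with a difference of 0.91 ± 0.48 (adjusted p = 0.364). The difference between the regions in Rps21 was 0.63 and did not pass.

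Against naive, 1 raphe member passed in sham samples, Rpl36a at -0.47 (1.35% of all probe sets passed, 0.514% as lower). It missed the threshold without a filter, with median centring and with quantile normalization, and in 8 of 16 fits with 1 sample left out, with an adjusted p up to 0.207 without naive replicate 3. The median was -0.18 in sham and -0.20 in injured samples. These comparisons share the naive samples. Without the doubted samples 8 passed in sham samples, all lower, and 17 in injured samples, 14 lower and 3 higher, the latter Rps21 (1.98), Rpl39 (0.48) and Rps27l (0.46), while 6.13% and 11.3% of all probe sets passed.

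By sample, the median of the raphe members was between -0.11 and 0.11 in naive samples and between -0.35 and 0.07 in operated ones, of which 24 of 36 were below the lowest naive sample. The sham sample at 30 min was at 0.08 over the members of type A, within the naive range of -0.12 to 0.15. The 4 injured samples at 3 months, from -0.16 to 0.07, had the highest group median over the members of any operated raphe group, -0.03, and the 2 sham samples at 14 d the lowest, -0.33. The 4 injured samples at 3 months also had a 5th percentile of signal of 17.6 to 20.1. In the other raphe samples that are not doubted it was at most 17.4. The part of this in their median was not tested.

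Blood cell genes moved with the raphe groups. Of 7 tested, 5 were lower in operated raphe, the globin genes Hba-a1 (-0.94), Hbb-b1 (-0.82) and Hbb (-0.73), the platelet gene Pf4 (-1.64) and the haem enzyme gene Alas2 (-0.61). The summed signal of 5 of them was 36677 to 39565 in naive raphe and 13068 to 36969 in operated raphe, where 34 of 35 samples were below every naive sample. Their part in the raphe result was not tested. In the cortex 0 of 7 passed by limma, their sum was 15581 to 23193 in naive samples and 14972 to 36400 in operated samples, of which 2 of 36 were below and 15 above every naive sample. The GAPDH ratio was 1.15 to 1.30 in naive raphe and above this in 22 of 36 operated samples. The actin ratio was above its naive range in 3 of 36. In the 14 operated samples not above the naive GAPDH range the median of the members ran from -0.35 to 0.01. Choroid plexus genes ran from 3830 to 8500 in naive raphe and from 4351 to 70330 in operated raphe, none of 7 past the threshold. Genes of meninges and fibroblasts had a median of -0.37, with 1 of 12 positive and none past the threshold, and their sum was below every naive sample in 23 of 35 operated samples and above in 7. Of 17 neuron genes 1 was lower, the enolase gene Eno2 (-0.61), and the neuron sum was below every naive sample in 16 of 35. The astrocyte sum was below in 26 of 35 and the microglia and macrophage sum in 20 of 35. The oligodendrocyte sum was below every naive sample in 9 of 35 and above in 13. The part of all of these and of the GAPDH and actin ratios in the raphe result was not tested.

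Injury was compared with laminectomy at the same times. In the cortex 0 members passed by limma over the 6 times (0.133% of all probe sets did), with a median of -0.01 and 9 at an unadjusted p below 0.05, 7 of them lower. The smallest p was that of Rpl23a, the large subunit protein beside the tunnel exit, at -0.60 ± 0.14 (adjusted p = 0.0762). In the raphe 1 member passed, Rpl39, a very small protein lining the exit tunnel (0.985% of all probe sets passed, 0.658% as higher). Its sham values ran from 10.66 to 11.67 (median 11.24) and its injured values from 10.89 to 12.82 (median 11.83), with naive values of 10.70, 11.54, 11.53 and 10.91. Injured samples were higher by 0.50 ± 0.13 (n = 24 and 11, adjusted p = 0.0452) and overlapped with the sham samples. It did not pass in 26 of 36 fits with 1 sample left out, with an adjusted p up to 0.0981 without sham at 28 d replicate 2. Without the doubted samples 4 raphe members passed: Rps21 (1.16), Rpl39 (0.45) and Rpl22l1 (0.37) were higher and Rpl23a (-0.38) was lower, and 4.73% of all probe sets passed.

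At single times 4 injured samples stood against 2 sham samples, or against 1 in the raphe at 3 months on type A. In the cortex 1 member passed and in the raphe 2, 1 of them on type A. The share of all probe sets that passed in the cortex was 0.0160% at 4 h, 0.0427% at 24 h, 0.368% at 7 d, 1.83% at 14 d, 0% at 28 d and 2.46% at 3 months. The cortex sham groups at 14 d and at 3 months each hold a doubted sample beside a single other one. The shares at these times are therefore no firm background for the members. In the cortex the median of the members was -0.20 at 4 h, -0.21 at 24 h, -0.10 at 7 d, 0.36 at 14 d, 0.04 at 28 d and 0.10 at 3 months. At 4 h, 12 members had an unadjusted p below 0.05 and all 12 were lower, none past the threshold. At 14 d, 25 were higher and 2 lower at an unadjusted p below 0.05, none past the threshold. The median of the other probe sets in the 10% with the highest signal was 0.15 at 14 d. There the sham samples were low, at -0.41 and -0.74, and the injured ones were between -0.28 and -0.12. Without the doubted sham sample, which leaves a lone sham sample, the median at 14 d was 0.24. With median centring and the doubted sample kept, 12 members were higher past the threshold. Of all 18733 probe sets 566 (3.02%) passed there, 506 of them higher. Centring moved the median of all probe sets from -0.07 to 0.11. It moved that of the other probe sets in the 10% with the highest signal to 0.34, with 84.5% of them positive. At 3 months the median turned to -0.07 with median centring, and over the 6 times together to 0.05.

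**Figure D4:**
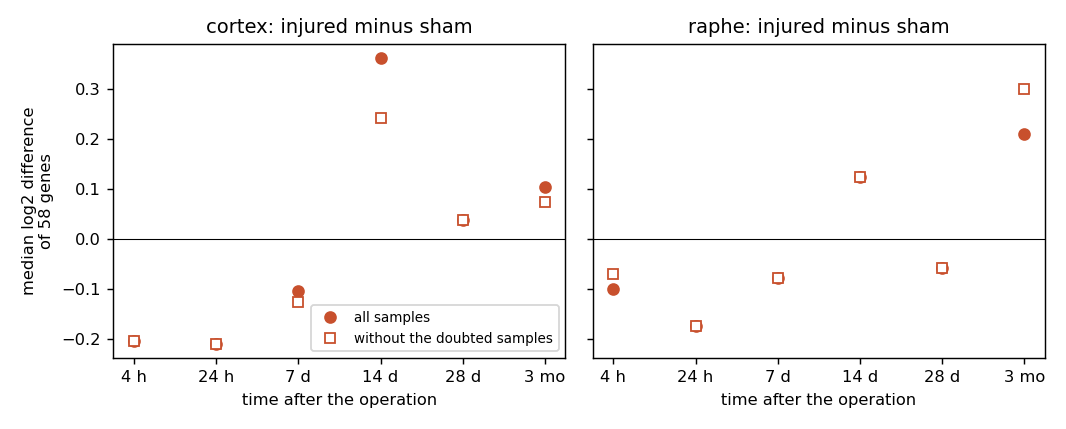
Median over the 58 genes of the log2 difference of injured minus sham samples (y axis) at each of the 6 times (x axis) in cortex and raphe, with all samples (filled circles) and without the doubted samples (open squares). The cortex runs from -0.21 at 24 h to 0.36 at 14 d, which falls to 0.24 without the doubted samples. The raphe runs from -0.18 at 24 h to 0.21 at 3 months, which rises to 0.30 without the doubted samples.

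In the raphe 0.150% of all probe sets passed at 4 h, 0.00535% at 24 h, 0.798% at 7 d, 0.0375% at 14 d, 0% at 28 d and 0.616% at 3 months. The injured raphe at 4 h and the sham raphe at 3 months each hold a doubted sample, so the shares at these times are no firm background either. Without the doubted samples the share at 4 h was 0.612%. The medians of the members were -0.10 at 4 h, -0.18 at 24 h, -0.08 at 7 d, 0.12 at 14 d, -0.06 at 28 d and 0.21 at 3 months. Without the doubted samples they were -0.07 at 4 h and 0.30 at 3 months, the latter against a lone sham sample. The times differ in which samples serve as sham, and none of these medians was tested. At 3 months Rps15, a small subunit protein, was at 13.25, 13.58, 13.49 and 13.15 in injured samples and at 12.35 in the only sham sample on its array type, a difference of 1.01 (adjusted p = 0.0284). This p takes the lone sham sample to vary like the samples of other groups, and the difference has no replicate check on the sham side. Naive values of Rps15 were 13.11, 13.40, 13.40 and 13.29, so the sham sample was the one that stood apart. In 3 of 35 fits with 1 sample left out it did not pass, with an adjusted p up to 0.0783 without raphe sham at 3 months replicate 1.

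Rpl23a was lower in injured than in sham samples at 7 d in the cortex and at 3 months in the raphe. At 7 d in the cortex its injured values were 9.86, 10.36, 10.75 and 10.41 and its sham values 12.04 and 12.52, with no overlap, beside naive values of 11.18, 11.09, 10.75 and 11.05. The injured samples were lower by -1.93 ± 0.35 (adjusted p = 0.0074), and the sham samples were above every naive sample. The adjusted p was 0.0934 without cortex sham at 7 d replicate 2. Its second probe set differed by -0.94 ± 0.33. At 3 months in the raphe the injured values were 10.56, 10.77, 10.32 and 10.87 and the sham values 12.12 and 11.72, again above the naive values of 11.06, 11.06 and 10.90, and the difference was -1.28 ± 0.25 (adjusted p = 0.0174). The higher sham sample is a doubted one, and without the doubted samples the adjusted p was 0.139.

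**Figure D5:**
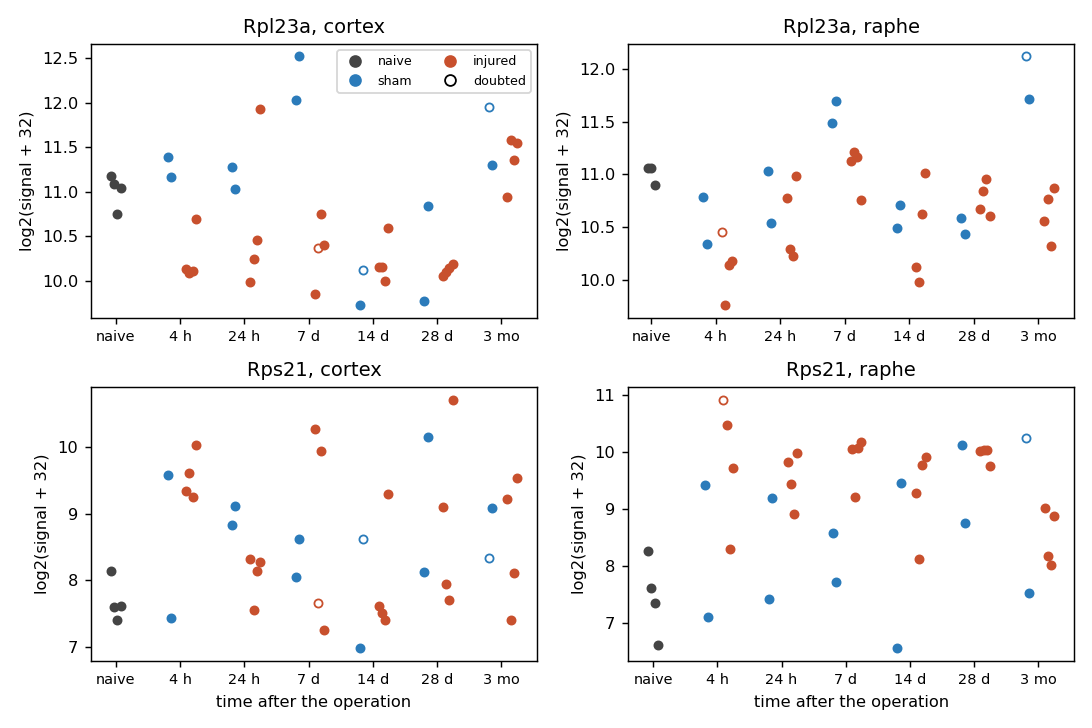
Log2 of signal plus 32 (y axis) of Rpl23a and Rps21 in every naive, sham and injured sample of cortex and raphe by time after the operation (x axis); open points are doubted samples. Rpl23a is highest in the sham samples at 7 d in the cortex, at 12.04 and 12.52, and Rps21 is above the 4 naive samples in 21 of 24 injured raphe samples.

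Over time after injury, 0 members passed the F test by limma in either region (0.487% of all probe sets in the raphe and 1.10% in the cortex did), with 15 and 12 at an unadjusted p below 0.05. Rps24, Rpl23a, Rps18 and Rpl36 were among the 5 members with the smallest p in both regions. Rps24, a small subunit protein, was at 9.47 ± 0.36 (SD, n = 4) at 4 h and 10.44 ± 0.23 at 3 months in the cortex, against 10.28 ± 0.12 in naive samples (adjusted p = 0.0510). Rps18, of the small subunit, was at 15.03 ± 0.14 at 4 h and 15.64 ± 0.27 at 3 months, against 15.54 ± 0.22 in naive cortex (adjusted p = 0.0850). Rpl36 in the injured raphe was below the naive mean by -0.67 at 24 h, -0.69 at 7 d, -0.61 at 14 d and -0.57 at 28 d, and stood at 0.04 at 3 months. At 4 h its mean was -0.05 from the naive mean, with values of 12.69, 12.65 and 12.47, each below every naive sample, and 13.96 in the doubted one. Its adjusted p was 0.0825, and 0.0012 without the doubted samples. Without the doubted samples Rpl23a passed in the raphe and Rps24 in the cortex. The injured samples at 3 months also had a raised low end of the signal. Their 5th percentile was 17.4 to 20.2 in the cortex and 17.6 to 20.1 in the raphe. In injured cortex at 4 h it was 9.56 to 17.1. The part of this in the values at 3 months was not tested.

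The naive regions were compared too. Between naive raphe and naive cortex 1 of 58 members passed, where 13.9% of all 19846 probe sets did, and the median difference was -0.03, or 0.03 with median centring. It was Rps4y2, a copy of the small subunit gene Rps4, higher in the raphe at 9.03, 9.07 and 9.14 than in the cortex at 7.77, 8.10, 7.89 and 8.30, by 1.06 ± 0.25 (n = 3 and 4, adjusted p = 0.0017), with no overlap. The difference held in operated samples as levels, with a median of 8.99 in injured raphe and 7.74 in injured cortex. Rpl4 (-0.44) and Rplp1 (-0.47), the acidic stalk protein, were lower in the raphe and did not pass with all samples (adjusted p = 0.0561 and 0.0768). Both passed without the doubted samples, as did 20.1% of all probe sets. The difference between the regions in operated minus naive was not detected for any member by limma (0 past the threshold, 0 at an unadjusted p below 0.05, smallest adjusted p = 0.836), where 0.0101% of all probe sets passed.

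Other genes of translation were counted in operated against naive samples, with all samples kept. Of all probe sets 1.28% passed there in the cortex, 0.662% as higher and 0.614% as lower. In the raphe 2.22% passed, 1.58% as higher and 0.642% as lower. Without the doubted samples the shares were 2.54% and 8.92%, and the lists were not counted in that setting. Of 38 initiation factor genes, 1 was lower in operated cortex, the poly(A)-binding protein gene Pabpc4 (-0.48), and 1 in operated raphe, Eif3k (-0.47), with medians of -0.09 and -0.01. Of 11 elongation and release factor genes, 0 passed in either region by limma, with medians of 0.01 and 0.02. Of 19 other genes with oligopyrimidine mRNAs, 2 were lower in operated cortex: Rack1 (-0.37), which sits on the small subunit, and Fau (-0.44), whose product is cut to give a small subunit protein. In the raphe 1 was higher, Btf3 (1.13), a part of the complex on nascent chains. Their median was -0.05 in the cortex and 0.11 in the raphe, where 13 of 19 were positive.

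Of 57 ribosome assembly genes tested, 0 passed in the cortex (median 0.06), and in the raphe 3 were higher, Bysl (1.29), Wdr12 (0.75) and Nle1 (0.89), and 1 was lower, the RNA polymerase I subunit gene Polr1a (-1.10), with a median of 0.01. Of the mTOR and S6 kinase genes, Rheb, which activates mTOR, was higher in operated cortex (0.41, 1 of 31), and Rps6kb1, the S6 kinase, in operated raphe (1.01, 1 of 30), with medians of 0.15 and 0.09. Of 71 mitochondrial ribosomal protein genes 2 were higher in operated cortex, Mrpl32 (0.60) and Mrpl3 (0.82), and 0 passed in the raphe, with medians of -0.05 and 0.03. The medians of these lists stand beside -0.24 and -0.20 for the cytosolic ribosomal protein genes, and the difference between lists was not tested. Their counts stand beside the shares of all probe sets given above for operated against naive samples.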

How the data were processed

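RNA of 84 rat samples was measured on 244 arrays of 3 types. The deposited values are intensity values, 1 per probe set on a linear scale; that the authors scaled each array is read from the values, since the 2% trimmed mean was 800.5 to 801.3 on every array. Which software computed them is not stated in the sources used here. Groups follow the titles; where a description gave another time (cortex injured at 24 h replicates 1 and 2 on type A, and the raphe sham at 30 min), the title was used. No columns were left without a sample.

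Control probe sets were left out, 32 was added and log2 taken. Probe sets entered the tests when 4 or more arrays of a region read them above that array's 40th percentile. limma 3.58.1 in R 4.3.3 (statmod 1.5.0) fitted group means per region and array type with 1 spread, and two-sided p-values were adjusted by Benjamini-Hochberg over the 3 types together, with a threshold of 0.05. Members were named by a rule: up to 10 past the threshold with the largest difference, or, where under 5 passed, the 5 with the smallest p; others named for a sign, a rank or a value near the threshold were chosen after their values were seen. The members, gene lists and rules for doubted samples were chosen with earlier results of these data known. The fit was tested on simulated data. Precision is limited by the number of arrays, above all by 2 sham samples per time.

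Alternatives were quantile normalization, median centring, no filter, a stricter filter (60th percentile), an added constant of 1 or of 4 times the one used, array quality weights, a replicate block, the mean over every probe set of a gene, and leaving out the doubted samples, the arrays of conflicting labels or each sample. Probe sets are named from the platform annotation, which can be old, and near-identical copies and pseudogenes of these genes may add to a signal.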

Additional observations from a re-analysis of the deposited data

Results flagged for a closer look

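In 56 groups of 4 samples, taken from the family medians and from the naive values of named members, 4 held a sample far from the other 3, and chance flags about 1 in 20. All 4 were single genes in naive cortex: Rplp0 in replicate 4 (14.37, the highest), Rplp1 in replicate 3 (14.36, the highest), Rpl17 in replicate 3 (9.50, the lowest) and Rpl22l1 in replicate 4 (9.86, the lowest). The family median of no group held such a sample. Of these genes Rplp0 was past the threshold in operated cortex, and without naive replicate 4 its difference was -0.46 with an adjusted p of 0.149. No member passed the test of the difference between the regions in operated minus naive.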

How the results depend on the processing

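Counts are of the 58 members past the threshold. The share of all probe sets that passed moved with the setting too. Without the doubted samples it rose from 3.06% to 11.3% for raphe injured against naive and from 2.00% to 4.12% for cortex injured against naive. With median centring it fell from 1.28% to 0.806% for cortex operated against naive. For most settings the share is not given here, so a changed count need not be particular to the members. Over the 6 times together, the median of the members moved by less than the pooled SD within groups (0.0957 in the raphe and 0.127 in the cortex) under every alternative run, for each comparison. This SD is that of single samples, a wide bound for means over many samples, so the check could not show smaller shifts. Within it, cortex injured against sham changed sign with median centring, from -0.01 to 0.05. Single times were not compared in this way. With array quality weights the counts were 17 for cortex injured against naive, 4 for cortex injured against sham at single times, 5 for the cortex time course, 3 for naive raphe against naive cortex, 19 for raphe injured against naive, 6 for raphe at single times, 5 for raphe injured against sham, 10 for raphe operated, 6 for raphe sham against naive and 5 for the raphe time course. Without the doubted samples they were 1 for the cortex time course, 3 between naive regions, 17, 4, 4, 15, 8 and 2 for raphe injured against naive, single times, injured against sham, operated, sham against naive and time course. With a filter at the 60th percentile they were 3 for cortex single times, 6 for cortex sham against naive, 2 for the cortex time course, 2 between naive regions, 2 for raphe operated and 2 for raphe sham against naive. With no filter they were 0 for cortex sham, 1 for raphe injured against naive, 0 for raphe injured against sham and 0 for raphe sham. With median centring they were 13 for cortex single times, 4 for cortex operated, 1 for raphe injured against naive, 1 for raphe single times and 2 for raphe injured against sham. With quantile normalization they were 2 for cortex single times, 2 for the cortex time course, 4 between naive regions, 1 for raphe injured against naive and 0 for raphe injured against sham. With an added constant 4 times as large they were 1 for the cortex time course and 2 each between naive regions and for raphe injured against sham and sham against naive. With the mean of all probe sets they were 2 for cortex single times, 5 for raphe injured against naive and 1 for raphe single times, and without arrays of conflicting labels 2 for cortex single times and 1 for the cortex time course.

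On type A, same-numbered samples did not deviate together on the mean (mean correlation -0.0010 over 174 raphe pairs and 0.0256 over 198 cortex pairs). Single same-numbered cortex pairs reached 0.468, and differently numbered cortex pairs had a mean of -0.0093. A mean of this kind cannot exclude shared animals or batches. Whether raphe and cortex samples came from the same animals was not examined. With the replicate block the counts were 2 for cortex single times, 1 for cortex injured against sham, 0 for cortex sham against naive, 2 for the cortex time course, 1 for raphe injured against naive, and 0 for raphe injured against sham, raphe operated and raphe sham against naive. In operated against naive, Rpl11 and Rps3 in the cortex and Rpl36a in the raphe missed the threshold with it. Their adjusted p by limma was 0.0557, 0.0545 and 0.0596.

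With 1 sample left out the counts ran from 3 to 10 for cortex injured against naive and 0 to 2 for cortex injured against sham. They ran from 1 to 9 for cortex operated, 0 to 8 for cortex sham, 0 to 2 for the cortex time course and 1 to 2 between naive regions. For the raphe they ran from 0 to 17 for injured against naive, 0 to 3 for injured against sham and 0 to 12 for operated. For raphe sham and for the raphe time course they ran from 0 to 2. Single times are not counted here, since leaving out a sham sample leaves at most 1 at that time. The 8 for cortex sham came without cortex sham at 14 d replicate 1, which leaves the doubted sample alone at 14 d. Shares of all probe sets in these fits are not given here. A group left with 1 sample was taken to have the spread of the rest. Of the named members, Rpsa in cortex injured against sham turned from 0.18 to -0.077 with the mean of its probe sets, and the difference between regions in Rps27, 1.37 with all samples, ran from -0.24 without raphe naive replicate 2 to 2.23 without raphe naive replicate 4. The causes were not tested. Signal over background limits the 4 members below the 50th percentile most.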
